A study of Mus musculus with 8 samples.

Results

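Among 4788 autosomal H3K27me3 peaks of morulae injected with Kdm6b mRNA (Kdm6bWT), 2402 (50.2%) lay on a domain that was also called in morulae injected with mRNA for a mutant form (Kdm6bMUT). These peaks were chosen from the peak positions of both lists: a Kdm6bWT peak on chromosomes 1 to 19 was taken if 1 base or more of it fell within a Kdm6bMUT peak. The peaks off the domains numbered 2386, and the whole Kdm6bWT list, with X and other sequences, held 4991. On the Kdm6bMUT side, 2336 of 88804 autosomal peaks (2.63%) carried at least 1 of them. Below, a Kdm6bMUT peak is called a domain, a domain that carries a Kdm6bWT peak is called its host, and the Kdm6bWT peaks on hosts are called remnants, as a name for their position only. Since the rule used the overlap itself, the 50.2% and the 2.63% are given as descriptions.

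H3K27me3, trimethylation of lysine 27 on histone H3, is written by Polycomb repressive complex 2 and marks silent chromatin. Kdm6b, also called Jmjd3, is a demethylase that takes methyl groups off this residue. In mouse oocytes the mark forms broad domains, many of them between genes and outside the usual Polycomb targets, and these pass to the embryo on the maternal genome, where some keep the maternal copy of a gene silent. The series title places the work in this setting, for the X-linked gene Xist. X was not part of the peaks described here.

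The series has 8 mouse samples, of which the 2 ChIP libraries used here are native, ultra-low-input H3K27me3 profiles of morulae labelled BDF1xPWK, 1 library for each mRNA. BDF1 eggs from females aged 8 weeks were fertilized in vitro, and both groups were injected from 2.5 to 4 hours post fertilization with mRNA at 1.8 µg/µl, so the Kdm6bMUT embryos were injected too. The labels do not say what the mutation changes, and they give no number of morulae per ChIP library. The protocol text names BDF1 sperm for injected embryos while the strain label names PWK, and both input samples carry a tag for no injection although their titles name an mRNA. The 4 RNA-seq samples of blastocysts were not analysed here.

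With 1 library per mRNA nothing can be checked against replicates, and the values below carry no p-value. The peak lists hold no read counts, so depth is unknown, and a shallower library yields fewer and narrower peaks. The lowest accepted −log10 p was 3.67 in the Kdm6bWT list and 2.41 in the Kdm6bMUT list. The lowest deposited significance score was 10 in both, so the p values alone do not show that the cutoffs differed. Values in brackets after a share, a rate or a median are 95% exact intervals. They cover counting error only and treat peaks as independent, which neighbours are not.

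Hosts were far wider than the ordinary Kdm6bMUT domain. Counted by 1 shared base, they were about as wide as the domain around an ordinary Kdm6bMUT base. The same held with domains limited by p value. By stricter overlap or with nearby domains joined they were wider than that. The median host width, counted once for each remnant, was 4976 bases (4801 to 5286), with quartiles at 2317 and 9658 bases. The median over all domains was 1583 bases, with quartiles at 783 and 3328. Weighted by their length, so that every base under a domain counts once, all domains had a median width of 4934 bases and quartiles of 2396 and 9644. The median of the length-weighted widths thus lay inside the interval of the hosts' median, whereas the median by number lay far outside it. Of the remnants, 23.9% (22.2% to 25.7%) sat in hosts of 10 kb or more. The plot of cumulative width shows where the curves part. Domains of up to 999 bases were hosts to 8.78% of remnants and held 6.61% of domain bases, and from about 2 kb up the curves ran together. A count by 1 shared base takes in remnants that reach into a narrow domain from outside: domains under 500 bases were touched by 85 remnants but held 38 midpoints, and those of 500 to 1000 bases 127 and 67. When 50% of the peak had to be covered, the median host was 5962 bases (5710 to 6219), above the 4934 by base. Domains too narrow to cover that much of a peak can seldom be hosts then, so this difference is partly set by the rule. With only domains at or above the lowest −log10 p of the Kdm6bWT list, the median host was 6944 (6557 to 7278) against 7084 by base. With domains less than 5 kb apart joined, the median host was 48382 (45981 to 51361) against 38106 by base.

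**Figure D1:**
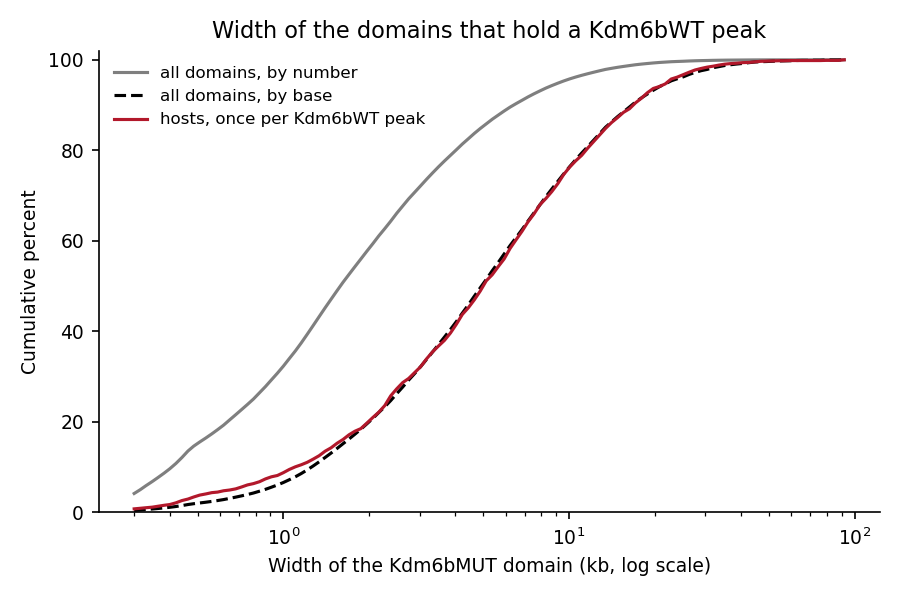
Cumulative percent of domains up to a given width (kb, log scale) for all Kdm6bMUT domains by number (grey), all domains by base (dashed) and hosts counted once per Kdm6bWT peak (red). The red curve follows the dashed one, with medians of 4976 and 4934 bases, and lies to the right of the grey one, with its median of 1583 bases.

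Counting a remnant where its midpoint lies, 2031 of the 2402 had it inside the host, or 8.21 midpoints per Mb of domain (7.85 to 8.57). This rate varied less with domain width than the share of domains touched. Domains of 20000 to 40000 bases were hosts in 21.4% of cases and domains of 500 to 1000 bases in 0.835%. Per Mb, the corresponding rates were 9.24 midpoints (7.72 to 11) and 5.90 (4.57 to 7.49). The lowest rate, 5.70 (4.92 to 6.57), belonged to domains of 1000 to 2000 bases. It was 7.86 (7.24 to 8.52) from 2000 to 5000 bases, 9.17 (8.44 to 9.94) from 5000 to 10000 and 9.72 (8.81 to 10.7) from 10000 to 20000. The intervals of 5.70 and 9.72 did not overlap. The ends of the range rest on few midpoints: 7.26 (4.06 to 12, from 15 midpoints) for domains from 40000 bases up and 7.59 (5.37 to 10.4, from 38) for those under 500 bases.

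More strongly enriched domains carried more remnants per base. Fold enrichment, the authors' ratio of ChIP over input within a list, had a median of 3.23 over hosts (3.22 to 3.25), 3.07 over all domains by number and 3.21 over all domains by base. In domains with a fold of 2.75 to 3 the rate was 6.08 midpoints per Mb (5.39 to 6.83), and in those of 3.25 to 3.5 it was 9.48 (8.81 to 10.2). Fold and width move together in this list, since the Spearman correlation of host fold with host width was 0.43 over the 2402 remnants. Within domains of 2000 to 5000 bases alone, the rate was 6.57 (5.51 to 7.78) for folds of 2.75 to 3. It was 8.79 (7.41 to 10.3) for folds of 3.25 to 3.5, so these intervals overlapped. The rate at this width still rose with each class of fold. It went from 5.56 (3.30 to 8.79) below 2.75 through 6.57, 8.06, 8.79 and 9.60 to 9.78 (5.59 to 15.9) from 3.75 up, with intervals that overlap. The folds of remnants and hosts had a Spearman correlation of 0.07 over 2402 pairs, each pair at 1 site, and remnant fold with host width had 0.01. Remnant folds spanned a narrow range, with quartiles of 3.64 and 4.15, which limits what these correlations can show.

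Hosts lay in dense company, as did the mass of Kdm6bMUT bases. The nearest other domain was 1625 bases from a host at the median (1599 to 1654). It was 1918 bases away for all domains by number and 1649 by base. Within the 50 kb on each side of a host, other domains covered a median of 42.2% (41.0% to 43.7%), against 27.6% for all domains by number and 40.0% by base. The last value fell below the interval of the hosts. A median host had 12 other domains within 50 kb. Domains with over 50% of these flanks covered carried 9.52 midpoints per Mb (8.88 to 10.2), and those with 10% to 20% carried 6.92 (6.01 to 7.92). In domains of 2000 to 5000 bases the same classes had 8.51 (7.18 to 10.0) and 8.38 (6.85 to 10.1), which did not differ beyond their intervals. Sparser flanks there had lower rates from few midpoints: 5.07 (2.77 to 8.50, from 14) below 5% and 6.28 (4.18 to 9.08, from 28) at 5% to 10%. From 20% up to 50% the 3 classes had 6.90, 8.74 and 7.88. Every interval overlapped that of the densest class, so these values do not settle whether the rate follows flank cover at this width. Runs of domains separated by less than 10 kb were compared as well, without matching for domain width. Single domains carried 6.24 midpoints per Mb (4.57 to 8.32), runs of 6 to 20 domains 8.13 (7.57 to 8.72) and runs of 21 or more 8.98 (8.44 to 9.55). On single domains, with no other within 10 kb, lay 60 remnants (2.50%), and these domains held 2.98% of the domain bases.

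Most remnants lay wholly inside their host. This held for 1679 of 2402, or 69.9% (68.0% to 71.7%), while 664 (27.6%) crossed 1 edge and 59 (2.46%) covered the host from end to end. Among those that crossed an edge, 356 had their midpoint outside. A bridge between 2 domains was formed by 6 remnants. The median number of bases shared with the host was 440 (429 to 457), and in the median host 10.8% of the bases lay under Kdm6bWT peaks. Remnants wholly inside were a median of 1213 bases (1128 to 1292) from the nearer edge, with quartiles at 504 and 2587.

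Remnants centred inside their host were spread along its whole length. Those with the midpoint outside were left out of these counts. In hosts of at least 3 kb, 512 of 1528 midpoints, 33.5% (31.1% to 35.9%), fell in the middle 1 of 3 equal parts, where an even spread puts 33.3%. By the midpoint of the shared bases, which takes in remnants centred outside, the share was 31.3% (29.1% to 33.6%). Cut into 10 equal parts from the lower to the higher coordinate, these hosts held between 7.98% (6.67% to 9.46%) and 11.3% (9.78% to 13%) of midpoints in a part. The interval excluded 10% in part 1 (8.44%, 7.10% to 9.95%) and in part 4. Among hosts of at least 10 kb, 187 of 561 midpoints (29.4% to 37.4%) fell in the middle 1 of 3 parts. There part 4 of 10, with 6.60% (4.69% to 8.98%), and part 10, with 12.8% (10.2% to 15.9%), had intervals that excluded 10%. Coordinate order carries no biological direction.

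**Figure D2:**
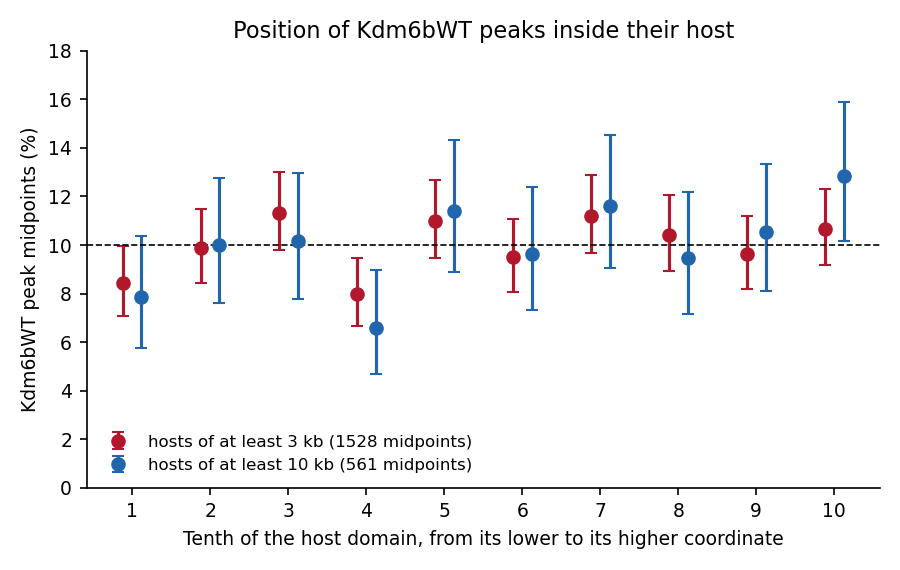
Percent of Kdm6bWT peak midpoints in each of 10 equal parts of the host domain, for hosts of at least 3 kb (red, 1528 midpoints) and of at least 10 kb (blue, 561 midpoints), with 95% exact intervals; the dashed line marks 10%. Points scatter around the line, between 7.98% and 11.3% in red and between 6.60% and 12.8% in blue.

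Kdm6bWT peaks thinned out gradually across the domain edge. Midpoints of all autosomal Kdm6bWT peaks, on and off the domains, were counted by their distance from the nearest domain edge. Inside, the density was 6.59 per Mb (6.03 to 7.19) in the outermost 500 bases, 7.56 (6.80 to 8.39) from 500 to 1000 bases and 9.96 (9.11 to 10.9) from 1000 to 2000 bases. Farther in it was 8.89 (8.10 to 9.75) from 2000 to 5000 bases, 9.24 (7.84 to 10.8) from 5000 to 10000 and 10.8 (7.90 to 14.4, from 46 midpoints) beyond that. These values and the one from 1000 to 2000 bases had intervals that overlap. Just outside, within 500 bases, it was still 5.38 (4.91 to 5.89). Farther out it was 2.12 (1.89 to 2.37) at 2000 to 5000 bases and 0.637 (0.587 to 0.691) beyond 100 kb. The outermost 500 bases hold narrow domains in full, so the profile was repeated in domains of at least 10 kb. There the outermost 500 bases had 7.63 midpoints per Mb (5.11 to 11), the next 500 had 11.8 (8.64 to 15.8), and the parts from 1000 bases inward had between 8.91 (7.72 to 10.2) and 11.1 (8.82 to 13.7), intervals that overlap.

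**Figure D3:**
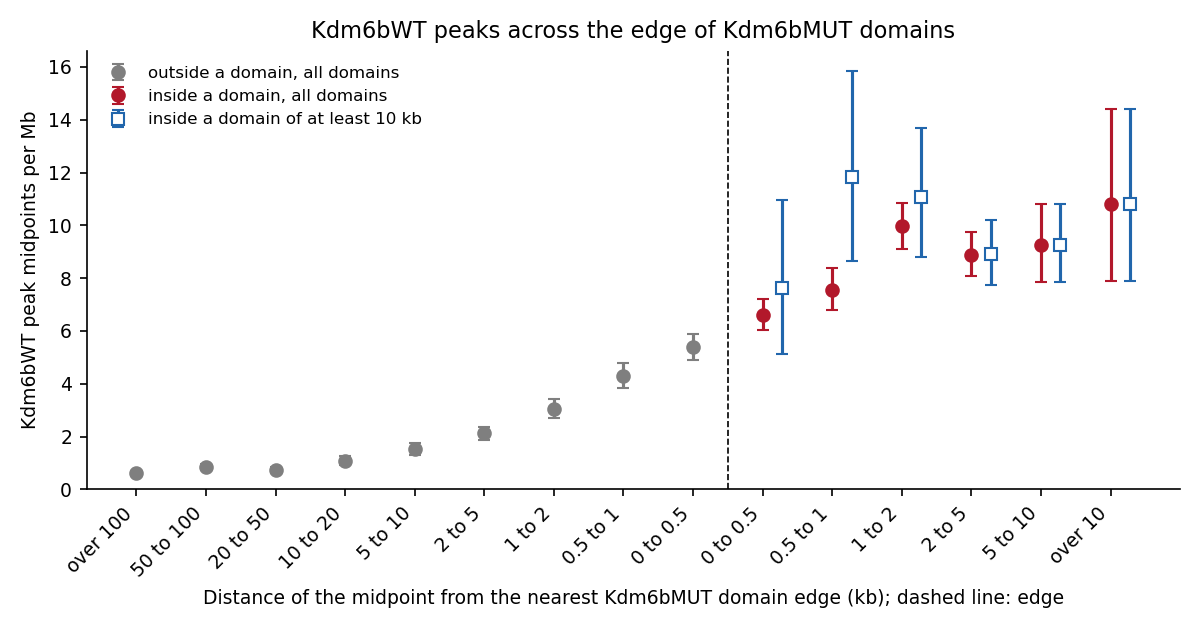
Density of Kdm6bWT peak midpoints (per Mb, with 95% exact intervals) by distance from the nearest Kdm6bMUT domain edge (kb), outside domains in grey, inside all domains in red and inside domains of at least 10 kb as open blue squares. The density climbs from 0.637 per Mb beyond 100 kb to 5.38 just outside the edge and lies between 8.89 and 10.8 inside all domains from 1 kb inward, where the intervals overlap.

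A domain, as deposited, rarely held more than 1 remnant. Of the 2336 hosts, 2272 held 1, 57 held 2, 6 held 3 and 1 held 4, so that 64 hosts, or 2.74% (2.12% to 3.49%), had 2 or more. Those 64 had a median width of 11710 bases (9160 to 15094), against 4717 (4445 to 4928) for hosts with 1. Within the widest hosts the share was higher, at 5.23% (4.00% to 6.69%) of hosts from 5000 bases up and 9.30% (4.90% to 15.7%) of hosts from 20000 bases up. A longer domain has more bases on which another remnant can fall, so both differences follow in part from length itself. Peaks of the Kdm6bWT list were never closer than 1205 bases, which limits how many a narrow host can hold. The share depends on how domains are cut and peaks chosen: it was 20.2% (18.6% to 22%) of hosts when domains less than 5 kb apart were joined, and 1.41% (0.825% to 2.25%) with Kdm6bWT peaks of score 13 or more. Neighbouring remnants of 1 host were separated by a median of 3909 bases (2995 to 4830; range 1209 to 18100).

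The host with 4 remnants was a 22.7 kb domain on chromosome 17 (69402993 to 69425723, fold 3.28). Its remnants were centred 1.04, 11.1, 15.1 and 22.2 kb from its start, with widths of 300, 1505, 301 and 2502 bases and folds of 4.51, 3.64, 4.24 and 4.08. The last ran past the edge of the host. Together they covered 17.2% of it. A 17.3 kb domain on chromosome 3 (97630476 to 97647790) held 3, centred at 1.89, 7.41 and 11.5 kb, which covered 13.5%. On chromosome 6, a 25.8 kb domain (92813272 to 92839049) held 3 in its higher part, at 15.3, 17.4 and 23.9 kb, and 8.20% of it lay under them. The remaining 4 hosts with 3 remnants were on chromosomes 6, 8, 14 and 15 and lie outside the naming rule; they are given because their counts were seen. Among them, the narrowest was an 8.46 kb domain on chromosome 14 (49550132 to 49558592), of which 28% was covered. A 16.4 kb domain on chromosome 15 (85256220 to 85272604) was covered to 24.9%, and an 11.5 kb domain on chromosome 8 (83324612 to 83336089) to 14.5%. These 7 hosts had folds between 3.11 and 3.56, around the median of 3.23 over hosts.

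**Figure D4:**
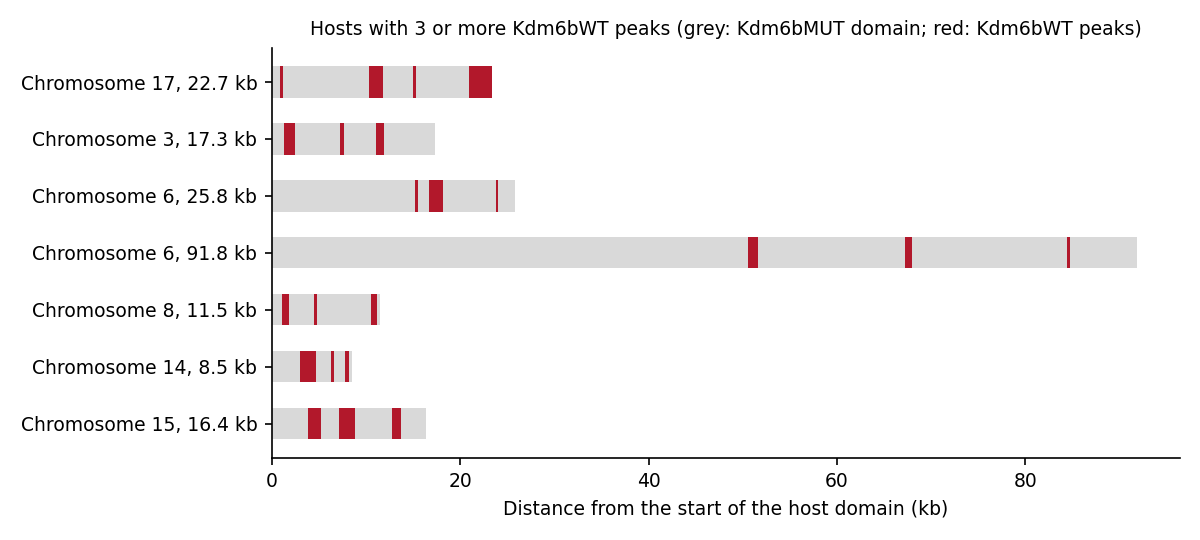
The 7 hosts with 3 or more Kdm6bWT peaks, drawn to scale from the start of each domain (kb), with the Kdm6bMUT domain in grey and Kdm6bWT peaks in red. Red blocks are spaced along the domains, and in the 91.8 kb domain of chromosome 6 all 3 lie in the higher part.

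The 3 widest hosts had at most 2.23% of their length under Kdm6bWT peaks. The 91.8 kb domain on chromosome 6 (118965425 to 119057236) was the widest autosomal domain, and its 3 remnants of 1029, 704 and 312 bases covered 2.23% of it. They were centred 51.1, 67.6 and 84.6 kb from its start, with folds of 3.77, 4.12 and 3.63. The first lay 40.2 kb and the next 23.9 kb from the nearer edge, the deepest of all remnants. A 78.7 kb domain on chromosome 7 (124604606 to 124683281) held 1 remnant of 1286 bases (1.63% of the host) and a 59.2 kb domain on chromosome 6 (112785666 to 112844899) held 1 of 659 bases (1.11%). Next in depth was a remnant of 741 bases on chromosome 4 (152800987 to 152801727), 20.6 kb from the nearer edge of a 43.6 kb host.

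Remnants were small. Their median width was 584 bases (552 to 622) with quartiles at 336 and 1070, and 463 of them (19.3%) had the smallest width in the list, 300 bases. Peaks off the domains had a median of 431 bases (417 to 443), and 28.3% of them had the smallest width. A wider peak has more positions in which it touches a domain, so this difference is partly set by the rule. By midpoint, 37.1% (34.3% to 40.0%) of Kdm6bWT peaks of 300 bases, 46.7% (43.8% to 49.5%) of those of 500 to 999 bases and 42.8% (39.8% to 45.9%) of those from 1000 to under 2000 bases lay in a domain. Peaks between 300 and 500 bases had 42.1% (39.4% to 44.9%), and the 100 widest, from 2000 bases up, had 51% (40.8% to 61.1%). The smallest peaks thus lay below those of 500 to 999 bases and those from 2000 bases up beyond their intervals, and the shares of the other classes did not follow width in order. The median fold was 3.84 for remnants (3.82 to 3.86) and 3.85 for peaks off the domains (3.82 to 3.86), and the median score was 13 for each. Remnants near the edge and deep inside were alike: with the midpoint under 500 bases from the edge the median width was 491 bases and the median fold 3.88, and from 5000 bases inward they were 520 bases and 3.81. Across host widths the median remnant fold ranged from 3.82 to 3.86, within a narrow range over all remnants (quartiles 3.64 and 4.15).

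A few remnants, like a few peaks off the domains, stood apart by their score, which is the deposited significance of a peak and not a level. A score of 50 or more was reached by 27 of 2402 (1.12%), and by 21 of the 2386 peaks off the domains, so such scores occurred in both groups. At 30 or more the numbers were 59 and 67. Of the 27, 17 covered their whole host, against 59 of all remnants, and 11 had a host with no other domain within 10 kb, against 60 of all. Their median fold was 6.34, while their hosts' median was 2.79. Among the 27, 8 began within the first 4 Mb of a chromosome, where mouse autosomes adjoin the centromere, against 13 of all remnants. Without peaks that start there, the autosomal Kdm6bWT list fell from 4788 to 4740 peaks and the remnants from 2402 to 2389. Such starts thus also occurred off the domains, where high scores among them were not counted. The highest score, 1379, was that of a 762-base peak on chromosome 17 (4625997 to 4626758). Its fold was 49.5, and its host was a 300-base domain with a fold of 3.34. Next came a 646-base peak on chromosome 9 (35112650 to 35113295, score 1023, fold 7.30) on a host of 569 bases, and a 570-base peak on chromosome 12 (3109722 to 3110291, score 686, fold 7.56) on a host of 534 bases. All 3 hosts were isolated, with the nearest domain 207012 bases away or more.

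The 3 widest remnants also covered their hosts. Of them, 2 lay at the start of chromosome 9, with widths of 7745 bases (2999916 to 3007660, fold 3.82) and 7462 bases (3020434 to 3027895, fold 4.48), and each covered its host, of 2157 and 5049 bases, entirely. The other, of 5392 bases on chromosome 2 (98502245 to 98507636, fold 6.38, score 654), covered a host of 5217 bases. The host folds were 1.64, 2.05 and 2.63, below the lower quartile of 2.87 over all domains. Their nearest other domains were 1716, 5240 and 17414 bases away. Domains with no other within 50 kb, which include the hosts of the 3 highest scores but not those of the 3 widest remnants, carried 16.5 midpoints per Mb (9.79 to 26.1, from 18 midpoints), while domains 20 to 50 kb from the next carried 2.87 (0.932 to 6.70, from 5). Domains with a score of 30 or more carried 19 (13.2 to 26.6), against 9.84 (8.41 to 11.4) for scores of 25 to 29. Without domains that start before 4 Mb, the isolated domains had 13 (7.12 to 21.8, from 14 midpoints) and those scoring 30 or more 16.9 (11.4 to 24.1). All domains outside these starts had 8.18 (7.83 to 8.55). The isolated domains thus did not differ from all domains beyond their interval once chromosome starts were left out, while those scoring 30 or more lay above. Whether the high-scoring sites carry H3K27me3 or draw reads in any library was not tested.

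Remnants gathered where domains gathered, and domains next to a host carried more of them per Mb than domains with no host beside them. They lay in 1545 of the 16873 runs of domains, and the 476 runs with 2 or more held 1333 of them (55.5%), a share set in part by that choice. Runs of 21 or more domains, not chosen by remnants, held 48.3% of remnants and 45.8% of domain bases. A 356.8 kb run on chromosome 3 (51353512 to 51710298) of 47 domains held 10 remnants on 8 hosts. A 210 kb run on chromosome 8 (83287460 to 83497495) of 28 domains held 9 on 5 hosts, which is 59.1 midpoints per Mb of domain (27 to 112). A 348 kb run on chromosome 15 (85077897 to 85426065) of 57 domains held 9 on 7 hosts. These were chosen for their high counts, so a rate above the 8.21 of all domains follows in part from the choice. Away from that choice, domains next to a host, within 10 kb, were hosts themselves in 5.55% of cases (4.87% to 6.29%), 229 of 4125. Domains that had a neighbour within 10 kb but no host beside them were hosts in 2.61% (2.50% to 2.72%). Per Mb of domain, the rates were 11.6 midpoints (10.1 to 13.4) and 8.01 (7.64 to 8.39), so the difference was smaller once domain length was counted. Domains next to a host were also wider, with a median of 2421 bases against 1648, and the rates were not matched for width or fold. The 6 remnants that bridge domains make hosts neighbours by themselves and are included.

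Another Kdm6bWT peak lay within 10 kb of 393 remnants, 16.4% (14.9% to 17.9%), and the median gap from a remnant to the next Kdm6bWT peak was 53448 bases. For peaks off the domains the values were 7.80% (6.75% to 8.94%) and 160826 bases, and the median gap over the whole autosomal list was 91921.5 bases. Kdm6bWT peaks were denser on domains than far from them, and these differences cannot be told apart from that density.

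In windows of 1 Mb, 1378 of 2420 held no remnant, 469 held 1 and the fullest held 13. The 50 fullest windows, 2.07% of all, held 383 remnants, or 15.9% (14.5% to 17.5%), and 7.07% of the domain bases. The 50 windows most covered by domains, which were not chosen by remnants, held 8.33% of remnants and 10.8% of domain bases. Windows with 400 kb of domains or more had 7.67 midpoints per Mb of domain (6.91 to 8.50), and those with 100 to 200 kb had 8.58 (7.91 to 9.30). Per base, then, the densest windows were not richer. Among the 405 windows with at least 200 kb of domains the number of remnants ran from 0 to 13, with a median of 3 and a variance 1.85 times the mean. Its Spearman correlation with domain coverage was 0.28 over these windows, which are not independent where a run of domains crosses from one to the next.

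The fullest window was on chromosome 8 from 83 to 84 Mb. It held 13 of its 16 Kdm6bWT peaks on domains that covered 446 kb. Chromosome 3 from 51 to 52 Mb held 12 on 430 kb of domains, and chromosome 9 from 117 to 118 Mb held 11 on 471 kb. Chromosome 17 from 87 to 88 Mb also held 11, on 346 kb. Chromosome 3 from 127 to 128 Mb held 10 on 441 kb. These 5 windows ranked between 48 and 153 among all windows by domain coverage, so they were well covered without being the most covered. Their rates ran from 21.2 to 26.9 midpoints per Mb of domain, and were high by choice.

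**Figure D5:**
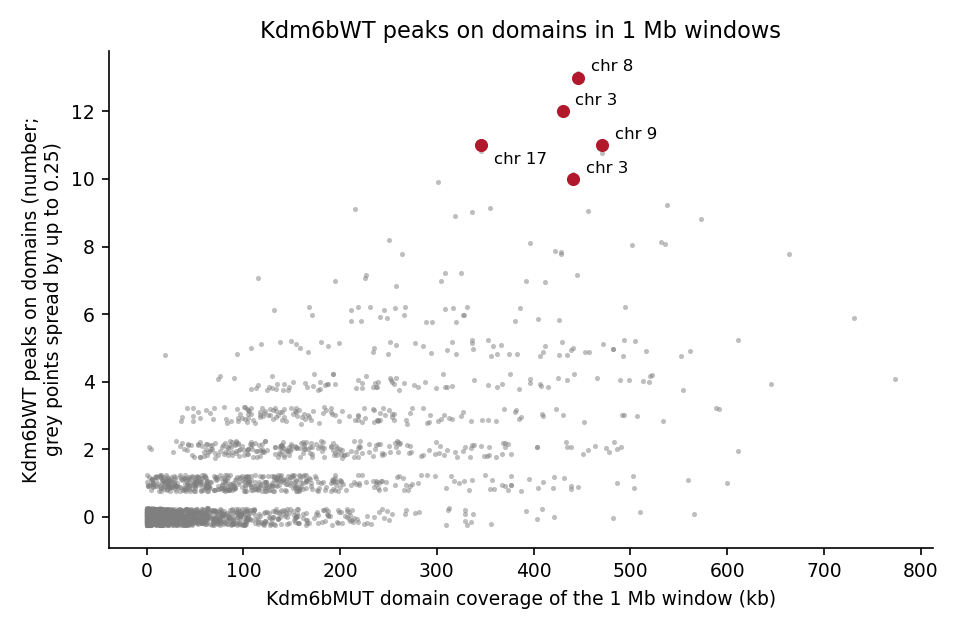
Number of Kdm6bWT peaks on domains in each of 2420 autosomal windows of 1 Mb, against the Kdm6bMUT domain coverage of the window (kb); the 5 fullest windows are red with their chromosome. The red windows hold 10 to 13 at 346 to 471 kb of coverage, while windows covered more widely hold fewer.

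Both measures varied across chromosomes. The share of Kdm6bWT peaks that lay on domains ran from 33.1% (24.7% to 42.3%) on chromosome 19 to 59.6% (53.9% to 65.1%) on chromosome 4. Domain coverage differed too, at 3.39 Mb over a span of 58.0 Mb on chromosome 19 and 16.8 Mb over 152 Mb on chromosome 4. Per Mb of domain the range was 6.06 midpoints (4.65 to 7.77) on chromosome 16 to 10.6 (8.53 to 13) on chromosome 15. Those intervals did not overlap, but the chromosomes were picked as the extremes of 19, so their difference follows in part from the choice. Per Mb, chromosome 19, with 10.3 (7.19 to 14.4), and chromosome 4, with 8.83 (7.47 to 10.4), overlapped. Chromosome 15 also had the widest hosts, with a median of 6143 bases, and chromosome 19 the narrowest, with 3448.

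The rule's border is a matter of a few bases. A 300-base peak on chromosome 9 (20597489 to 20597788) was taken for 1 shared base, a 300-base peak on chromosome 3 (146296384 to 146296683) for 3, and a 2027-base peak on chromosome 4 (97532549 to 97534575) for 4. Just outside, a 300-base peak on chromosome 14 (102942624 to 102942923) abutted a domain with 0 bases between, and peaks on chromosomes 4 (117978633 to 117978954) and 13 (113038816 to 113039254) missed one by 2 and 3 bases. At most 100 bases were shared by 105 remnants, and 83 peaks off the domains lay within 100 bases of one.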

How the data were processed

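H3K27me3 ChIP-seq was measured in morulae, and each list holds the peaks of 1 library over its input. Per the submitters' processing notes the tools included MACS2 and Bowtie2 2.2.2, with build mm9 and no settings. Per peak, a score, a fold enrichment (ratio over input) and −log10 p and q values were deposited by the authors; the columns follow the MACS2 broad peak order, without a header. Depth is unknown; how duplicates were handled is not given in the sources used here. Positions are mm9, counted from 1. Genes and genome sequence of mm9 were not used here.

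Overlaps, positions and rates were computed with scipy 1.17.1, pandas 2.3.3 and numpy 2.4.6 under Python 3.11.15 (plots: matplotlib 3.10.9), and the code was first tested on simulated data. Shares and medians have exact binomial intervals, rates exact Poisson intervals. A remnant touching 2 domains was assigned the one sharing more bases. Regions were named by rank of remnant count, width, score or depth in the host. The peaks, measures and rule were chosen with earlier results of these data known. Alternatives changed the overlap, score, p, smallest width, joining of domains and chromosome starts.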

Additional observations from a re-analysis of the deposited data

How the results depend on the processing

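No paired analysis was possible because each mRNA has 1 ChIP library. Of 49 values from other settings, 32 stayed within 1.5 times the reported count or inside its 95% exact interval, and 17 did not. The share of midpoints in the middle part of the host stayed inside its interval under all 9 settings tried for it. Requiring 50% of the peak to be covered gave 42.0% of Kdm6bWT peaks on domains and a median host of 5962 bases, above the 4934 by base. That rule itself bars many of the narrowest domains as hosts. A score of at least 13 left 1218 remnants, 1.41% of hosts with 2 or more, and 19.2% of remnants in the 50 fullest windows; fewer peaks remain by construction. Only domains at or above the lowest −log10 p of the Kdm6bWT list gave 34.4% on domains, a median host of 6944 bases (7084 by base over those domains), 3.59% of hosts with 2 or more, a median gap of 1898 bases and 19.1% in the fullest windows. Without peaks of 300 bases 52.7% lay on domains. Joining domains less than 5 kb apart gave 59.5% on domains, a median host of 48382 bases (above the 38106 by base), 20.2% of hosts with 2 or more and a median gap of 6704 bases, all larger by construction. In 100 windows of 500 kb the fullest held 21.5%, and by shared bases the 50 fullest held 19.7%. Otherwise the cause was not tested. The rates without chromosome starts were added after the data were seen.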

Other observations

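Some regions rich in Kdm6bMUT domains held no remnant at all. Of the 405 autosomal windows of 1 Mb with at least 200 kb of domains, 48 had none. The most covered of these, on chromosome 10 from 91 to 92 Mb, had 128 domains over 566 kb and 0 Kdm6bWT peaks of any kind. Chromosome 14 from 100 to 101 Mb had 510 kb of domains and 1 Kdm6bWT peak, which lay off them, and chromosome 2 from 67 to 68 Mb had 482 kb and 0. These windows were picked after their values were seen.

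One fold enrichment recurred. Exactly 3.642 was deposited for 100 of the 2402 remnants (4.16%, 3.40% to 5.04%) and for 93 of the 2386 peaks off the domains (3.90%, 3.16% to 4.75%), whereas the next most common value was shared by 3 and 2 peaks. The remnants with this fold ranged in width from 300 to 1559 bases, had a −log10 p of 4.22968 and a score of 10. In the Kdm6bMUT list the most common fold, 2.758, belonged to 1401 of 88804 domains (1.58%, 1.50% to 1.66%).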
